A study of Homo sapiens with 12 samples.

Results

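The S100 genes encode small calcium-binding proteins, and 10 of them were followed here across 4 groups of ZR-75-1 cells: *S100P*, *S100A4*, *S100A6*, *S100A7*, *S100A8*, *S100A9*, *S100A10*, *S100A11*, *S100A14* and *S100A16*. They were found by symbol among 60612 named genes, and all 10 had counts. The set was selected on the measured values of *S100P*, whose level in RB1-knockout cells was far lower with abemaciclib than with DMSO. The difference between those 2 knockout groups is therefore described below without a test for any member, and every value of *S100P* that includes knockout libraries is likewise a description.

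ZR-75-1 is an oestrogen receptor-positive breast cancer line. The sgControl cells had received a control guide RNA, and in the RB1-knockout (KO) cells the *RB1* gene had been disrupted with Cas9 ribonucleoprotein. Edited cells were sorted singly to obtain isogenic lines, per the study's methods. Both lines were kept for 5 days in DMSO, the solvent control, or in abemaciclib at 500 nM. The drug blocks CDK4 and CDK6, which phosphorylate and so inactivate Rb. Each of the 4 groups held 3 RNA-seq libraries. How many clones stand behind the 3 libraries of a genotype is not given in the sources used here. The loss of *RB1* and the choice of clone therefore cannot be told apart. The p-values set differences only against the spread between these libraries, estimated for each gene over the 4 groups together.

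S100 proteins carry EF-hand calcium-binding loops, act as dimers, and change shape on binding calcium so that they can grip a partner protein. Most of the genes lie side by side on the long arm of chromosome 1, among genes of the epidermal differentiation complex, which encodes proteins of the cornified skin surface. *S100P* lies apart, on the short arm of chromosome 4 (chr4:6693878-6697170 of GRCh38, plus strand), whereas the other 9 members lie between the start of *S100A10* at position 151982915 and the end of *S100A14* at position 153616986 of chromosome 1. In breast epithelium several members are known as luminal or stress-responsive genes, and some are secreted and act on receptors such as RAGE.

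Library totals ran from 39907318 to 81636393 counts, and values are given as counts divided by each library's size factor (normalised counts). *RB1* had 4576.7 ± 368.1 normalised counts in sgControl cells in DMSO and 46.8 ± 6.3 in KO cells (SD, n = 3 each), and at most 63 raw counts in any KO library against at least 2090 in any sgControl library. All 8 luminal markers examined, from *ESR1* to *EPCAM*, were detected in every group, with group means of at least 6386 normalised counts. Their levels were not constant (DESeq2, adjusted p under 0.05). In sgControl cells 5 rose and 3 fell with abemaciclib, where 49.8% of all genes tested passed. In DMSO 3 were higher and 4 lower in KO than in sgControl cells, where 37.4% passed. With abemaciclib 2 were higher and 5 lower in KO than in sgControl cells, where 55.9% passed. Of 7 basal and mesenchymal markers *KRT5*, *KRT14*, *TP63* and *VIM* had group means of at most 3.47 and *ZEB1* at most 17.4. The other two were expressed: *CDH2* averaged 827 normalised counts in sgControl cells in DMSO, 621 with abemaciclib, 826 in untreated KO cells and 1616 in treated ones, and *FN1* 434.5, 1226, 313.6 and 410.8 in the same order. The summed level of the 7 was 1116–1395 in the DMSO libraries, 1770–1943 in treated sgControl and 1990–2142 in treated KO libraries. The part of these markers in the results below was not tested. The share of counts from mitochondrial genes was 2.82–4.13% in the DMSO libraries and 5.44–8.53% in the abemaciclib libraries. Its part was not tested either.

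The members spanned a wide range of levels. On a scale of CPM (counts scaled to a common library total) per kilobase of exon, which allows different genes to be compared, *S100A14* led in sgControl cells in DMSO with 1644 ± 136, followed by *S100A6* (913 ± 113), *S100A16* (717 ± 75), *S100A11* (328 ± 49) and *S100A10* (96.6 ± 10.1). *S100P* (8.76 ± 0.79) and *S100A4* (2.68 ± 0.17) came next, and no neighbours in the order so far overlapped between libraries. *S100A7* (0.150), *S100A8* (0.0998) and *S100A9* (0.0779) were near the limit of detection and overlapped one another. The order changed with drug and genotype. With abemaciclib, *S100P* dropped below *S100A4* in sgControl cells to 0.957, where it overlapped *S100A7* (1.11), and in KO cells *S100P* (3.09), *S100A4* (2.75) and *S100A9* (2.72) formed a chain of overlapping values. Together the 10 genes made up 0.452% ± 0.044 of counts in sgControl cells in DMSO and 0.221% ± 0.006 with abemaciclib, against 0.449% ± 0.006 and 0.346% ± 0.008 in KO cells. In bulk RNA, fewer cells expressing a gene and less RNA per cell cannot be told apart.

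An exact match to TATAAA divided the promoters of low members from those of abundant members. The 250 bases before each RefSeq start were searched on both strands for 7 short motifs picked after the expression values were known, and all 10 members had a window. The letters TATAAA, the classical TATA box, occurred in a window of *S100P*, *S100A4*, *S100A7*, *S100A8* and *S100A9*, the 5 lowest members on the per-length scale in every group, with their first base 28 to 31 bases before a start. None of the 5 abundant members had these exact letters, and 10.7% of all 35116 windows did. *S100A14* and *S100A6*, both abundant, held the near match TATAAG shortly before a start, which the search did not count. GGGCGG, the core of the GC box, occurred in 5 members (*S100A6*, *S100A9*, *S100A10*, *S100A11* and *S100A16*), against 42.6% of all windows. AGGTCA, a half-site for oestrogen receptor, was found in *S100A4* and *S100A7* (12.1% of all windows). No member had TTCCCGC (5.52%) or TTGGCGC (2.56%), which are E2F-type letters, TTTGAA (13.3%), a cell-cycle element, or TGANTCA (6.57%), the AP-1 site. Such matches describe letters and are not evidence of binding.

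The windows of *S100P* (chr4:6693628-6693877, plus strand) and *S100A9* (chr1:153357604-153357853, plus strand) show the kind with TATAAA. Those of *S100A10* (chr1:151993860-151994109, minus strand) and *S100A14* (chr1:153616326-153616575, minus strand) show the kind without these exact letters. All are from RefSeq, GRCh38.p14, written 5′ to 3′ and ending at the base before the start, with the matches to TATAAA, and to GGGCGG on either strand, in capitals.
S100P: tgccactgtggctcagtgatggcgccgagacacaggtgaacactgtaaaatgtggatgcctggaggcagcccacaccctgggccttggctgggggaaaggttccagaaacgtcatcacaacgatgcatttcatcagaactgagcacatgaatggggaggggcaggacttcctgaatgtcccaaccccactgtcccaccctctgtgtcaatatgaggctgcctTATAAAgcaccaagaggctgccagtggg
S100A9: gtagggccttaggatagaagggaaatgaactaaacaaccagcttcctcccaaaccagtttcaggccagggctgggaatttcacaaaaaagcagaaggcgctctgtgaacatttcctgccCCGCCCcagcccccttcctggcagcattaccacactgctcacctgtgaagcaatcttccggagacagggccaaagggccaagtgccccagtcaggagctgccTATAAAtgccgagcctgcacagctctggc
S100A10: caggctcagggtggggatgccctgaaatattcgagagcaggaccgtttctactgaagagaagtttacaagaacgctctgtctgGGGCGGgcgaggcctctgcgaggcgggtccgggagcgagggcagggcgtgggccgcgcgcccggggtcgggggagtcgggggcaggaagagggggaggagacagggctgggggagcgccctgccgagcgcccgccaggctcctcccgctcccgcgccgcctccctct
S100A14: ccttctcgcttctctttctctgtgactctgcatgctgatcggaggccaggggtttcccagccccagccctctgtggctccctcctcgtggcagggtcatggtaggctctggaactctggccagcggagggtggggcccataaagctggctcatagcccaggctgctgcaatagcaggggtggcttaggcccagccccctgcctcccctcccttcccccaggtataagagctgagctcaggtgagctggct
*S100A10* had 71.2% G and C and 24 CpG pairs, *S100A14* had 63.2% and 4, and *S100P* and *S100A9* each had 55.6% and 4. Composition did not divide the members in the same way. *S100A4*, with TATAAA, had 62.8% and 7, and the windows of *S100A16*, without it, had 57.2% and 1 and 58% and 6. The medians over all windows were 58% and 11.

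The first comparison asked what 5 days of abemaciclib did to these genes when Rb was present. Of the 10 members 6 fell, 1 rose and 3 did not pass the test (DESeq2, adjusted p under 0.05). Of all 22723 genes tested 49.8% passed, 25.0% higher and 24.8% lower, so a call on its own does not set a member apart. The median log2 fold change was −1.04 over the members and 0.02 over all genes tested. The members whose libraries did not overlap between DMSO and drug numbered 7 of 10, against 55.8% of all genes tested.

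**Figure D1:**
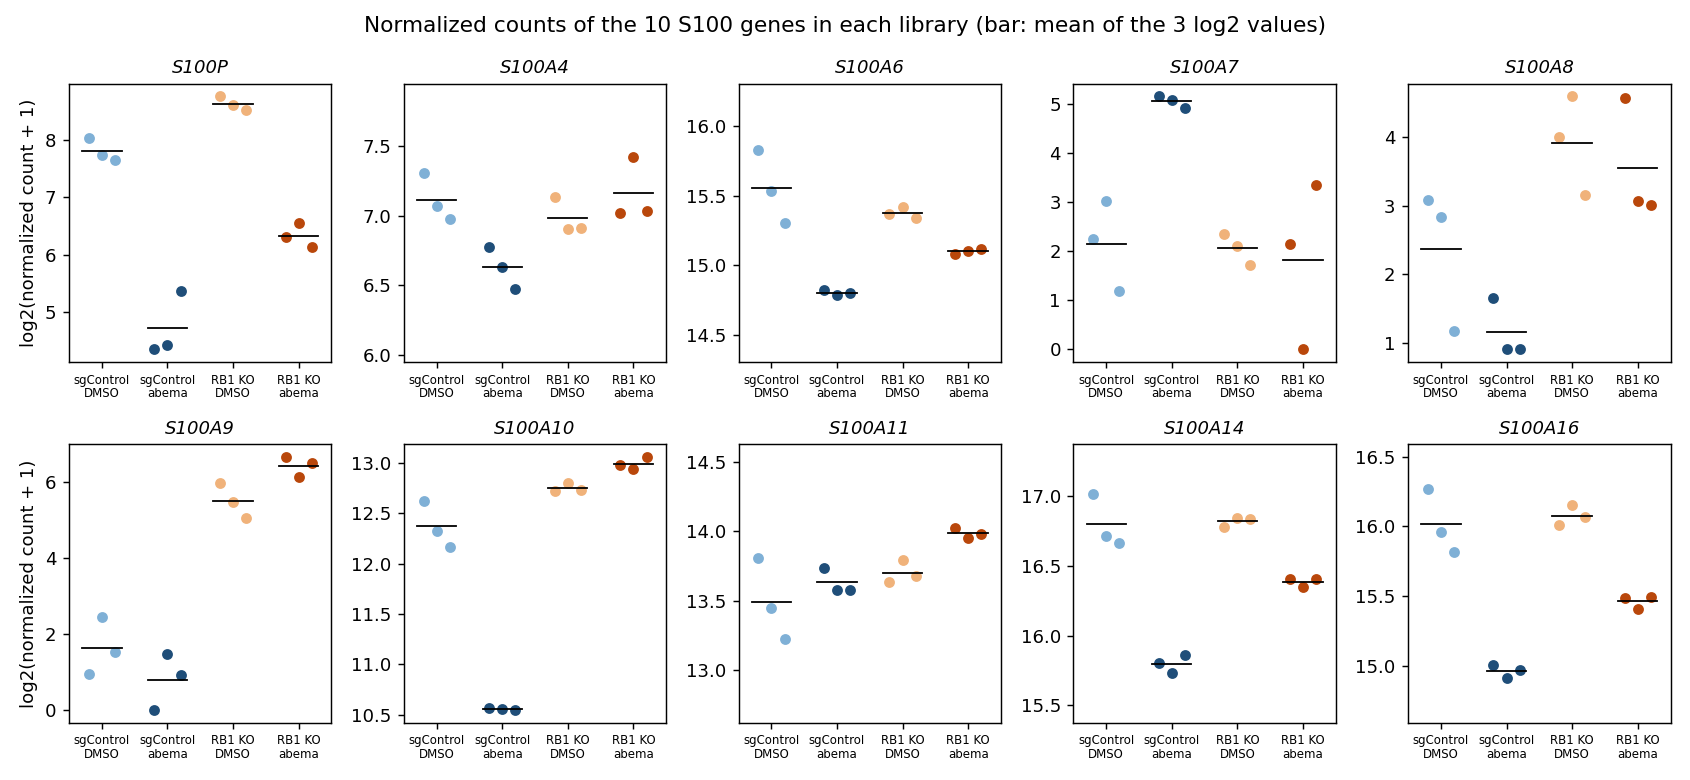
Log2 of normalised count plus 1 (vertical axis, a separate scale for each gene) for the 10 members in the 12 libraries, by group (horizontal axis). Points are libraries and bars are the mean of the log2 values of 3 libraries. *S100P* is lowest in sgControl cells with abemaciclib (19.4 to 40.5 normalised counts), *S100A10* is low only in that group, and *S100A9* is high in both KO groups.

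*S100P*, whose product binds ezrin and can act on RAGE, showed the largest fall among the members in sgControl cells. Its normalised counts were 263.4, 214.2 and 199.7 in the DMSO libraries and 19.4, 20.4 and 40.5 in the abemaciclib libraries. Every treated library was far below every untreated one, although treated replicate 3, with 46 raw counts, stood above replicates 1 and 2, with 18 and 23. The mean was 8.44-fold lower (log2 fold change −3.06 ± 0.23 SE, DESeq2 adjusted p = 8.77e-40), and the call held in all 18 alternative fits, with log2 fold changes from −3.49 to −2.88.

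In KO cells *S100P* had 434.5, 390.0 and 367.2 normalised counts in DMSO and 78.1, 92.7 and 69.6 with abemaciclib, a mean 4.96-fold lower (log2 fold change −2.31 ± 0.19). The level was thus higher in KO than in sgControl cells under both conditions, by 0.82 ± 0.17 on the log2 scale in DMSO and by 1.56 ± 0.24 with abemaciclib, and the response differed by 0.75 ± 0.30. No libraries overlapped in any of these comparisons. *S100P* was the only member whose KO response lay below −1 on the log2 scale, and the set was selected on that response.

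*S100A14*, *S100A16* and *S100A6* formed an abundant group whose means were 2.01-, 2.09- and 1.70-fold lower with abemaciclib in sgControl cells. *S100A14*, an epithelial member, had 132925, 107589 and 103966 normalised counts in DMSO and 57099, 54286 and 59638 with the drug. The groups were well apart, and replicate 1 in DMSO stood above its partners, as it also did for *S100P*, *S100A4*, *S100A6*, *S100A10*, *S100A11* and *S100A16*. Its log2 fold change was −1.01 ± 0.08 (DESeq2 adjusted p = 3.12e-34). *S100A16*, its neighbour on the chromosome, changed by −1.06 ± 0.09 (adjusted p = 2.46e-29). *S100A6*, calcyclin, had 58014, 47394 and 40368 normalised counts in DMSO and 28994, 28226 and 28524 with abemaciclib, a change of −0.77 ± 0.10 (adjusted p = 1.58e-14).

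In KO cells the same 3 genes were also lower with the drug, by smaller amounts. *S100A14* stood at 112845, 117847 and 117074 normalised counts in DMSO and 86855, 83503 and 87027 with abemaciclib, with no overlap (log2 fold change −0.43 ± 0.08). The difference was −0.61 ± 0.09 for *S100A16* and −0.28 ± 0.10 for *S100A6*. The response differed between genotypes for all 3 in the test of the interaction (KO minus sgControl), by 0.58 ± 0.12 for *S100A14* (DESeq2 adjusted p = 3.04e-06), 0.45 ± 0.13 for *S100A16* (adjusted p = 2.06e-03) and 0.49 ± 0.14 for *S100A6* (adjusted p = 1.21e-03). These calls held in each of 17 alternative fits.

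*S100A10* had another pattern: it lost most of its level with abemaciclib in sgControl cells and was not lower in KO cells. Its product, p11, is the S100 protein that no longer binds calcium and that forms a fixed complex with annexin A2 at membranes. The DMSO libraries of sgControl cells held 6313, 5135 and 4607 normalised counts and the abemaciclib libraries 1518, 1507 and 1495. The treated libraries lay within a narrow band far below the untreated ones, a mean 3.55-fold lower (log2 fold change −1.83 ± 0.09, DESeq2 adjusted p = 2.22e-82). In KO cells the counts were 6760, 7116 and 6809 in DMSO and 8071, 7859 and 8530 with the drug, so that every treated library was above every untreated one (0.24 ± 0.09). The responses differed by 2.07 ± 0.13 (adjusted p = 9.47e-54), and the difference was at least 1.94 in all 17 alternatives.

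*ANXA2*, the partner gene, was described because of this complex and was picked with its values known. It fell from a mean of 28576 to 17712 normalised counts in sgControl cells (log2 fold change −0.69 ± 0.07, DESeq2 adjusted p = 1.47e-23) and differed by 0.06 ± 0.07 in KO cells. The interaction was 0.75 ± 0.10 (adjusted p = 5.71e-14). Both genes of the complex therefore had lower RNA with abemaciclib in sgControl cells, *S100A10* by the greater amount.

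*S100A4* and *S100A11* had the smallest responses to abemaciclib in sgControl cells among the 7 members with higher counts. *S100A4*, known as metastasin and a partner of non-muscle myosin, had 157.3, 133.1 and 124.7 normalised counts in sgControl cells in DMSO and 108.8, 98.3 and 88.1 with abemaciclib (log2 fold change −0.49 ± 0.18, DESeq2 adjusted p = 0.0121). This call was lost without sgControl DMSO replicate 1 (adjusted p = 0.0827) or sgControl abemaciclib replicate 3 (adjusted p = 0.0789). In KO cells the libraries overlapped, at 139.4, 119.0 and 119.4 in DMSO and 129.1, 170.6 and 130.1 with the drug. The interaction of 0.68 ± 0.25 passed (adjusted p = 0.0181), but missed the threshold without sgControl DMSO replicate 1 (adjusted p = 0.0610), sgControl abemaciclib replicate 3 (0.0600), KO DMSO replicate 2 (0.0507) or KO abemaciclib replicate 2 (0.0898). *S100A4* overlaps *S100A3* on the same strand, but *S100A3* had only 1 to 6 counts per group. An unnamed antisense gene overlaps *S100A6*, and another overlaps *S100A11*.

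*S100A11*, a partner of annexin A1, had 14343, 11157 and 9558 normalised counts in sgControl cells in DMSO and 13624, 12242 and 12236 with abemaciclib. The libraries overlapped, and the difference of 0.12 ± 0.11 did not pass (DESeq2 adjusted p = 0.399, 95% interval −0.10 to 0.34). Without sgControl DMSO replicate 1 it was 0.29 and passed (adjusted p = 7.45e-05). KO cells had 12687, 14193 and 13105 in DMSO and 16660, 15849 and 16170 with the drug, higher by 0.28 ± 0.11. The interaction was 0.16 ± 0.16 (adjusted p = 0.451), and passed with total-count scaling (0.29, adjusted p = 0.0453) or without sgControl DMSO replicate 3 (0.29, adjusted p = 0.0421).

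*S100A7* was the 1 member that rose in sgControl cells. Known as psoriasin, it is a secreted protein of inflamed epithelium. Raw counts were 4, 8 and 2 in DMSO and 32, 37 and 33 with abemaciclib, so the treated libraries were even and all above the untreated ones. Scaled for depth, the pooled ratio was 8.66 (95% exact interval 4.93 to 16.4, counting error only), and DESeq2 gave an adjusted p of 3.11e-05. In KO cells the counts were 3, 3 and 2 in DMSO and 3, 0 and 9 with abemaciclib, too few to tell a difference. The interaction of −2.66 ± 1.11 passed narrowly (adjusted p = 0.0403) and was lost in 12 of 17 alternatives, with adjusted p up to 0.103, among them edgeR (0.0535) and each leave-one-out fit except those without sgControl DMSO replicate 2, KO DMSO replicate 3 or KO abemaciclib replicate 3. Near-identical copies of *S100A7* lie beside it, and how reads shared between copies were counted is not given in the sources used here, so its level is uncertain. *S100A7A*, one such gene, had 3 counts in all.

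**Figure D2:**
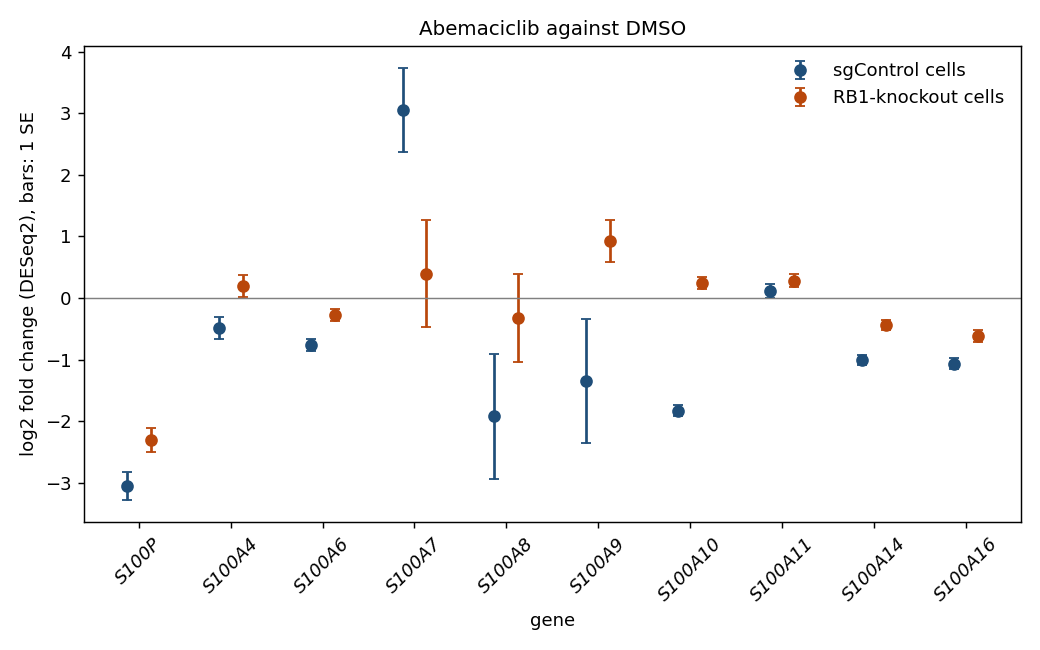
Log2 fold change of abemaciclib against DMSO from DESeq2 (vertical axis) for each member (horizontal axis) in sgControl and in KO cells. Points are estimates from 3 libraries a group and bars are 1 standard error. *S100P* is low in both genotypes (−3.06 and −2.31), while *S100A10* is at −1.83 in sgControl cells and 0.24 in KO cells. The long bars belong to *S100A7*, *S100A8* and *S100A9*, whose counts were low.

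*S100A9* and *S100A8*, which pair to form calprotectin, a metal-binding protein best known from neutrophils, were set apart by genotype. *S100A9* had 1, 5 and 3 raw counts in the untreated sgControl libraries and 45, 39 and 28 in the untreated KO libraries, a depth-scaled ratio of 18.8 (95% exact interval 9.53 to 42.1; DESeq2 adjusted p = 5.45e-12). With abemaciclib it had 0, 2 and 1 counts in sgControl cells and 88, 66 and 88 in KO cells, a ratio of 91.2 (30.8 to 445.2; adjusted p = 1.17e-12). Every KO library was far above every sgControl library. *S100A8* had fewer counts than *S100A9* in every KO library. In DMSO *S100A8* had 8, 7 and 2 counts in sgControl and 11, 21 and 7 in KO cells (ratio 3.46, interval 1.91 to 6.52, DESeq2 adjusted p = 0.0665). With abemaciclib the counts were 2, 1 and 1 against 20, 7 and 7 (ratio 9.61, interval 3.43 to 37.3; adjusted p = 2.14e-03).

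The DMSO difference of *S100A8* passed in 4 of 18 alternatives, edgeR among them (adjusted p = 0.0367) and 1 the fit without sgControl DMSO replicate 1 (0.0433). The drug response of both genes in sgControl cells did not pass (adjusted p = 0.108 for *S100A8* and 0.280 for *S100A9*). *S100A8* passed there without sgControl DMSO replicate 3 (adjusted p = 0.0402). The interaction of *S100A9*, 2.27 ± 1.06, did not pass (adjusted p = 0.0735), but passed without sgControl DMSO replicate 1 (0.0373) or KO DMSO replicate 1 (0.0428). In KO cells *S100A9* was higher with abemaciclib by 0.93 ± 0.34.

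Myeloid markers were examined beside these genes. Of 8 such markers *MPO* was at 0 in every library, and the summed level was 47.6–68.0 normalised counts in sgControl cells in DMSO, 450.5–550.8 with abemaciclib, 71.6–114.8 in KO cells in DMSO and 86.7–109.5 with abemaciclib. *LYZ* made up most of the sum in treated sgControl cells (505.3 normalised counts), the group with the lowest *S100A9*. Between genotypes in DMSO 2 markers could be tested, of which 1 was higher in KO cells (19.2% of all genes tested). With abemaciclib 5 could be tested, of which 1 was higher and 1 lower (28.5% and 27.4%). For the drug in KO cells none of 3 tested passed (30.0%). The marker higher in KO cells was *ITGAM*, picked with its values known. It was higher by 1.24 ± 0.41 in DMSO (DESeq2 adjusted p = 9.11e-03) and by 3.28 ± 0.48 with abemaciclib (adjusted p = 5.06e-11). Its part in the result was not tested.

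The remaining question was how the genotypes differed at the same treatment. In DMSO, 2 of the 9 members tested were higher in KO cells and none was lower, where 37.4% of 16755 genes tested passed, 19.2% higher and 18.2% lower. The 2 were *S100A9*, above, and *S100A10* (0.37 ± 0.09, DESeq2 adjusted p = 4.07e-04). *S100A14* differed by 0.01 ± 0.08, with a 95% interval from −0.15 to 0.17, and *S100A16* by 0.05 ± 0.09 (−0.13 to 0.23). *S100A6* differed by −0.19 ± 0.10 (adjusted p = 0.106), and was lower in KO cells with total-count scaling (adjusted p = 0.0259) or without sgControl DMSO replicate 3 (1.24e-04). Leaving out sgControl DMSO replicate 1 also brought *S100A11* (0.36, adjusted p = 1.86e-06), *S100A14* (0.13, 0.0156) and *S100A16* (0.18, 4.21e-03) past the threshold. Counting all members, *S100P* included, 4 of 10 had no overlap between genotypes in DMSO, against 46.3% of genes tested.

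With abemaciclib the genotypes separated for every member. Of the 9 tested, 8 were higher in KO cells and *S100A7* was lower, against 55.9% of 21529 genes called, 28.5% higher and 27.4% lower. No member, *S100P* included, overlapped between genotypes, whereas 65.7% of all genes tested did not. *S100A10* was 5.41-fold higher (log2 fold change 2.44 ± 0.09, DESeq2 adjusted p = 5.06e-146). The others above the limit of detection differed by less: 0.59 ± 0.08 for *S100A14*, 0.55 ± 0.18 for *S100A4*, 0.50 ± 0.09 for *S100A16*, 0.35 ± 0.11 for *S100A11* and 0.30 ± 0.10 for *S100A6*, with adjusted p from 2.12e-12 to 4.92e-03. *S100A4* alone lost its call when a library was left out, KO abemaciclib replicate 2 (adjusted p = 0.0768). *S100A7* had a depth-scaled count 7.52-fold lower (95% exact lower bound 4.12; adjusted p = 1.04e-04).

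**Figure D3:**
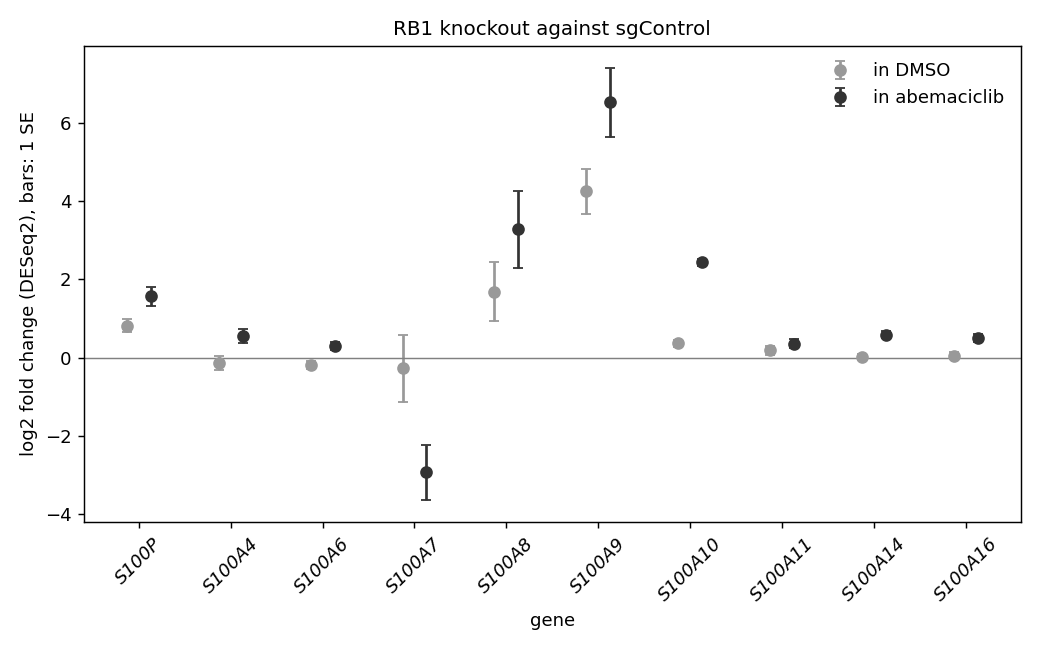
Log2 fold change of KO against sgControl cells from DESeq2 (vertical axis) for each member (horizontal axis) in DMSO and in abemaciclib. Points are estimates from 3 libraries a group and bars are 1 standard error. *S100A10* moves from 0.37 in DMSO to 2.44 with abemaciclib, *S100A9* is at 4.25 and 6.52, and *S100A7* is below 0 with abemaciclib (−2.93).

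Of the 9 members tested for a difference in response, 5 had a higher value in KO cells (*S100A4*, *S100A6*, *S100A10*, *S100A14* and *S100A16*), 1 a lower value (*S100A7*) and 3 did not pass, where 41.4% of 20932 genes tested passed, 21.1% higher and 20.3% lower. The median interaction was 0.63 over the 10 members, *S100P* included, and 0.03 over all genes tested. In KO cells, where no test is given, the median response was −0.04 over the members, 7 of 10 did not overlap between DMSO and drug (49.4% of all genes tested did not), and 30.0% of the 18546 genes tested passed the threshold. *S100P*, on whose values the set was selected, is among the 10 in these figures, so they are descriptions.

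Across the 12 libraries, several members ran in parallel. The log2 levels of *S100A14* and *S100A16* had a Pearson correlation of 0.989, *S100P* correlated at 0.958 with each of them, and *S100A6* at 0.952 with *S100A16*. *S100A7* ran against *S100A10* (−0.820) and *S100A4* (−0.785). The libraries share their groups, so these values mostly describe the 4 group means. Among 11884 genes with a mean of at least 100 normalised counts, those most like *S100P* were *INHBB* (0.983), which encodes an activin and inhibin subunit, *RRP7A* (0.983), a ribosome-assembly gene, *LEMD2* (0.982), of the inner nuclear membrane, *TRAF2* (0.980), a signalling adaptor of TNF receptors, and *SLC7A5* (0.978), a transporter of large neutral amino acids. *SLC7A5*, for example, averaged 12201 normalised counts in untreated and 2402 in treated sgControl cells, against 19492 and 6401 in KO cells.

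Of the 11 other S100 genes measured, 3 had no count at all. *S100A13* was the highest, at 7.67 CPM per kilobase in sgControl cells in DMSO, near *S100P* (8.76) and above *S100A4* (2.68), followed by *S100A2* (1.57). In sgControl cells with abemaciclib 5 could be tested, of which 1 rose and 2 fell (25.0% and 24.8% of all genes tested). *S100A1*, a cardiac and muscle member, rose from 25.2 to 130.3 normalised counts (log2 fold change 2.39 ± 0.26, DESeq2 adjusted p = 1.12e-19), and its interaction was −1.86 ± 0.40 (adjusted p = 1.74e-05), the direction seen for *S100A7*. *S100A13* fell (log2 fold change −0.65 ± 0.13, adjusted p = 5.59e-06). These genes overlap on opposite strands, and whether counting used the strand is not given in the sources used here. *S100A5* fell from 12 counts in all to 1 (ratio 10.1, interval 1.49 to 431.4; adjusted p = 0.0328). It was higher in KO cells, the direction seen for *S100A8* and *S100A9*. KO cells had 29 counts in DMSO (ratio 3.64, interval 1.80 to 7.84) and 27 with abemaciclib (ratio 30.5, interval 5.03 to 1249.5), by counting error only. *S100A2* did not pass in sgControl cells (−0.10 ± 0.19, adjusted p = 0.704).

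Partner genes were counted from a list of 16 that encode proteins bound by S100 dimers or acting as their receptors. In sgControl cells with abemaciclib 9 fell and 2 rose, where 24.8% and 25.0% of all genes tested did. The interaction was higher for 7 and lower for 1, against 21.1% and 20.3% of all genes tested. The 4 with the highest counts were *BSG*, *MYH9*, *AHNAK* and *EZR*. *EZR*, ezrin, the partner of S100P, fell (log2 fold change −0.50 ± 0.04, DESeq2 adjusted p = 2.99e-38), and its responses differed by 0.41 ± 0.05 (adjusted p = 2.53e-13). *BSG*, a receptor for calprotectin, rose by 0.34 ± 0.11 (adjusted p = 3.08e-03). *MYH9*, the myosin heavy chain that binds S100A4, did not pass (0.05 ± 0.09, adjusted p = 0.707), nor did *AHNAK*, which binds the p11 complex (0.16 ± 0.11, adjusted p = 0.239).

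Partners of single members, picked with their values known, are given here. *ANXA1*, which pairs with S100A11, fell in sgControl cells (log2 fold change −1.93 ± 0.17, DESeq2 adjusted p = 1.09e-27), and its mean of 37.6 normalised counts there stood against 1326 in KO cells with abemaciclib (5.15 ± 0.16, adjusted p = 8.78e-217). *FABP5*, a partner of S100A7, fell in sgControl cells (−3.88 ± 0.15, adjusted p = 1.09e-147), where *S100A7* rose. *CACYBP*, calcyclin-binding protein, fell (−1.15 ± 0.08, adjusted p = 1.01e-47), where *S100A6* also fell.

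In sgControl cells, genes around the members on the chromosome did not follow one direction with abemaciclib. From a list of 26 flanking the S100 cluster on chromosome 1, 24 were tested in sgControl cells with abemaciclib, 11 rose and 8 fell (25.0% and 24.8% of all genes tested), and the median log2 fold change was 0.10. *TPM3* (−0.67 ± 0.06, DESeq2 adjusted p = 8.38e-26) and *ILF2* (−0.69 ± 0.06, adjusted p = 1.66e-27) fell. Of 14 genes tested around *S100P* on chromosome 4, 7 rose and 2 fell. *MAN2B2*, a lysosomal mannosidase, rose by 1.47 ± 0.07 (adjusted p = 3.84e-108), and *MRFAP1* did not pass (−0.04 ± 0.08, adjusted p = 0.743). Between genotypes with abemaciclib, 10 of these 14 were lower in KO cells and 1 was higher (27.4% and 28.5% of all genes tested). The interaction was lower for 8 and higher for 1 (20.3% and 21.1%).

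The epidermal differentiation genes between *S100A11* and *S100A9* were mostly too low to test. Of the 35 measured, 14 had no count. Only 5 could be tested in DMSO, of which 4 were higher in KO cells (19.2% of all genes tested). With abemaciclib 8 could be tested, of which 6 were higher (28.5%). A gene was tested only if its mean count over all libraries was high enough, so low genes could enter through high KO libraries. The genes named below were also picked by that mean. These counts are therefore descriptions and the shares are not a like comparison. *SPRR3*, a cornified-envelope precursor, averaged 6.94 normalised counts in sgControl and 77.2 in KO cells in DMSO (3.54 ± 0.34, DESeq2 adjusted p = 1.33e-23), and 10.2 and 249.9 with abemaciclib (4.64 ± 0.30, adjusted p = 9.58e-53). *IVL*, involucrin, averaged 1.02 and 134.5 in DMSO (adjusted p = 1.42e-18), and *SPRR1A* 3.58 and 85.8 (adjusted p = 7.85e-21). *TCHH*, trichohyalin, averaged 57.3 and 72.0 in DMSO and did not pass (0.31 ± 0.41, adjusted p = 0.604), and with abemaciclib it averaged 28.4 and 117.1 (2.04 ± 0.42, adjusted p = 4.18e-06).

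**Figure D4:**
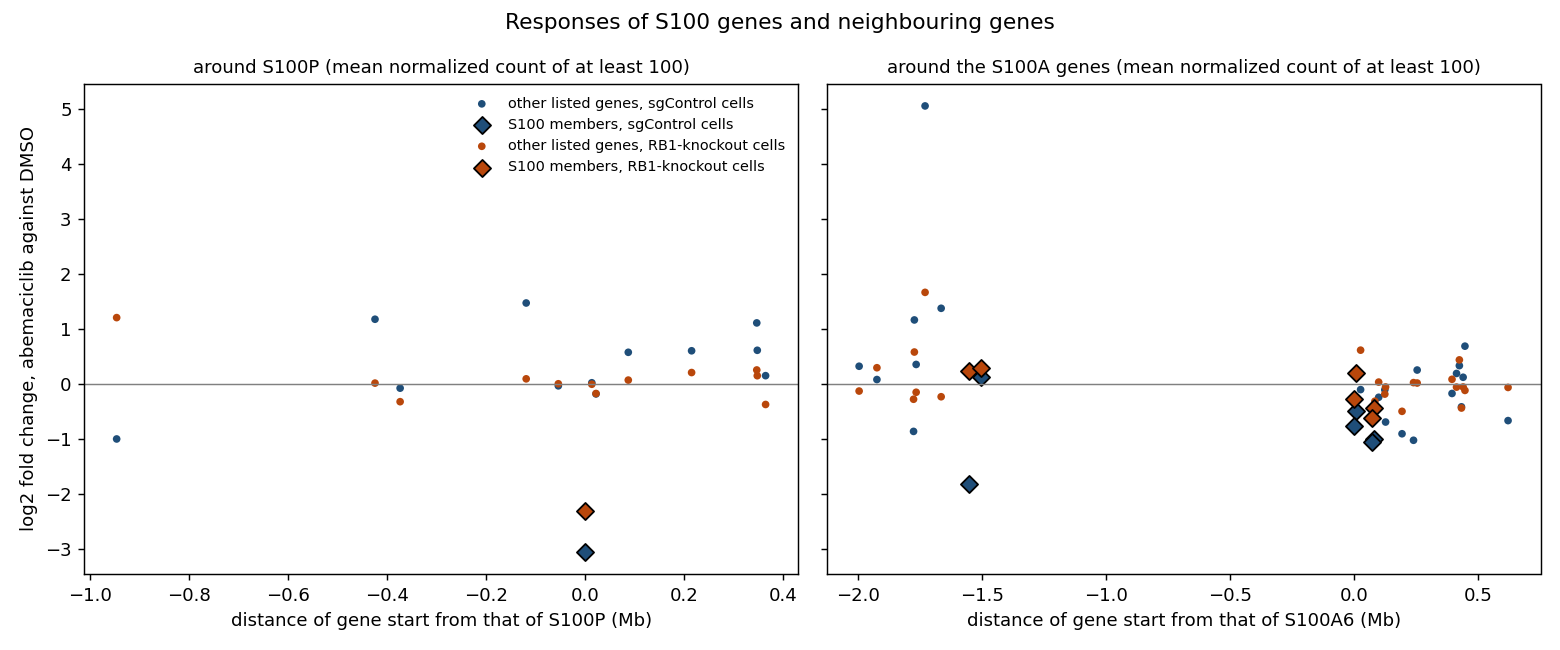
Log2 fold change of abemaciclib against DMSO in sgControl and KO cells (vertical axis) for genes with a mean of at least 100 normalised counts, against distance in megabases from the start of *S100P* or of *S100A6* (horizontal axis), with members as diamonds and other listed genes as dots. *S100P* is at −3.06 in sgControl cells, while of the genes listed around it *MRFAP1* is at −0.04 and *MAN2B2* at 1.47. On chromosome 1 both directions occur among neighbours.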

How the data were processed

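RNA was sequenced from 12 libraries of ZR-75-1 cells. The authors trimmed reads with BBDuk, aligned them to GRCh38/hg38 with STAR 2.7.5b and counted them over genes with featureCounts 2.0.1, and deposited raw counts per gene. Strand and multi-mapping settings are not given in the sources used here. The labels name a directional whole-transcript kit and the study's methods also describe a 3′ kit. If the latter was used, counts would not scale with gene length and levels per kilobase would be distorted. Of 60656 rows, 44 without a gene name held 0% of counts and were left out. The counts were tested with DESeq2 1.42.0 in R 4.3.3, with 1 group term over all 12 samples, median-of-ratios size factors, no shrinkage and Benjamini-Hochberg adjustment over all genes. Calls needed an adjusted p under 0.05. Standard errors, intervals and folds come from this model or from group means. Ratios of low counts use exact 95% binomial intervals, which cover counting error only. Exon lengths and positions are from GENCODE v44. The alternatives were edgeR 4.0.16 with TMM, total-count and TMM scaling in DESeq2, a filter of 10 counts in 3 samples, only the groups compared, a replicate block, and leaving out each library. Code was tested on simulated data. Replicates of 1 group differed beyond sampling noise, and most in untreated sgControl cells. Chi-squared per gene between 2 replicates was 18.1 to 105.1 there and 3.49 to 17.9 in the other groups. That group is the reference for the drug response in sgControl cells and for the genotypes in DMSO, and it enters the interaction. No pairing by replicate number is stated. Correlations of deviations between like-numbered libraries were all positive only between genotypes with abemaciclib (0.15, 0.26 and 0.11). Those of every other pair of groups had mixed signs and reached 0.37. Unlike numbers were not compared, so whether the numbers pair samples cannot be told. The members and lists were chosen with earlier results of these data known. Text names all 10 members, up to 4 genes of highest mean count per list, and the 5 genes most like *S100P*. The motifs, *ANXA1*, *ANXA2*, *CACYBP*, *FABP5*, *ITGAM* and *LYZ* were picked after values were seen.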

Additional observations from a re-analysis of the deposited data

Results flagged for a closer look

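The response to abemaciclib differed between KO and sgControl cells, by the DESeq2 test of the interaction (KO minus sgControl, log2 scale), for 6 of the 9 members tested: *S100A10* (2.07), *S100A4* (0.68), *S100A14* (0.58), *S100A6* (0.49), *S100A16* (0.45) and *S100A7* (−2.66). That test was passed by 41.4% of all genes tested.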

How the results depend on the processing

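Of the tested values of single members under the alternatives, 615 kept their direction and side of the threshold, 19 lost the call, 15 newly passed and 8 changed sign. Leaving out single libraries, the tested members past the threshold ranged from 6 to 8 for the drug in sgControl cells, 2 to 6 and 8 to 9 between genotypes in DMSO and abemaciclib, and 4 to 6 for the interaction, the 6 in DMSO being without sgControl DMSO replicate 1. All genes called ranged from 10203 to 11367, 4977 to 6599, 10910 to 12484 and 8044 to 9321 in these comparisons, and from 4335 to 6691 for the drug in KO cells. The tested values that changed sign had not passed. Leaving out single libraries, *S100A11* ranged from −0.00731 to 0.29 in sgControl cells and its interaction from −0.00853 to 0.29, and between genotypes in DMSO *S100A7* ranged from −0.76 to 0.44, *S100A14* from −0.055 to 0.13 and *S100A16* from −0.048 to 0.18. With total-count scaling *S100A11* in sgControl cells was −0.00198 and *S100A14* between genotypes in DMSO −0.00123. The cause was not tested. Among the untested values, the drug difference in KO cells ranged from −0.95 to 0.99 for *S100A7* and from −1.10 to 0.11 for *S100A8*, and *S100P* between genotypes with abemaciclib was 2.00 without sgControl abemaciclib replicate 3.

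Total-count scaling shifted the median of all genes by −0.13 for the drug in sgControl cells, 0.11 between genotypes with abemaciclib and 0.14 for the interaction, and turned the split of higher and lower genes from 5675 and 5630 into 4532 and 6779 for the first and from 4417 and 4251 into 5467 and 3098 for the last. The replicate block ended the call of the *S100A7* interaction (adjusted p = 0.0621) and gave 1 for *S100A8* between genotypes in DMSO (0.0431), and changed the call of no other tested member. The interaction could not be fitted with only 2 groups. Depth limits *S100A7*, *S100A8* and *S100A9*, which had fewer than 10 counts per library in several groups.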
